A study of Mus musculus with 6 samples.

Results

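The transcripts Mcpt4, Cma1, Tpsb2, Tpsab1, Cpa3, Kit, Kitl, Fcer1a, Ms4a2 and Hdc, which mark mast cells or act on them, were followed in RNA from mouse ectopic lesions, the growths that uterine tissue forms outside the uterus in a model of endometriosis. These 10 genes were given as a list of symbols and were found by their Ensembl identifiers among the 56884 genes counted. The study compared 3 control (WT) lesions with 3 Dnmt3a knockout (KO) lesions, each sequenced as 1 library. WT lesions grew from uterine fragments of Dnmt3a f/f females, and KO lesions from fragments of Dnmt3a f/f:PR-Cre/+ females, in which Cre recombinase is made in cells with progesterone receptor. Both groups carry the floxed alleles, and only the KO donors carry Cre, so that a Cre control without floxed alleles is not among these groups. Donors were 8 weeks old and had received estradiol before their uteri were taken, and every recipient was a wild-type C57BL/6J female with an estrogen pellet. The labels give a time of 4 weeks and fragments injected into the peritoneal cavity, while the methods give day 21 and 1 fragment sutured to the mesenteric membrane. The recipient's own Dnmt3a gene is intact in both groups, so blood-derived cells of the recipient that entered a lesion were not targets of the Cre.

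Mast cells are tissue-resident immune cells that mature locally from blood-borne progenitors. They need the growth factor encoded by Kitl, which binds the receptor encoded by Kit. They store histamine, made by the enzyme Hdc, together with proteases in granules, and release both when IgE bound to the receptor of Fcer1a and Ms4a2 is cross-linked. Mouse mast cells of connective tissue make the chymase Mcpt4, Cma1, the tryptase Tpsb2 and the carboxypeptidase Cpa3, while those of mucosal epithelium make Mcpt1 and Mcpt2. In the uterus, mast cells lie mostly in the muscle layer and the stroma. In bulk RNA, fewer mast cells and less transcript per mast cell cannot be told apart.

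The stretch before the transcription start is shown for 3 granule protease genes, because Mcpt4 parted from the others while Cma1 and Cpa3 varied together. Each sequence is the 250 bases before the RefSeq start on GRCm38.p6, read 5′ to 3′ along the gene's strand, and capitals mark GATAA or its reverse complement TTATC, the letters bound by GATA factors. The windows lie on the minus strand at chr14:56062311-56062560 for Mcpt4, chr14:55944676-55944925 for Cma1 and chr3:20242182-20242431 for Cpa3.
Mcpt4: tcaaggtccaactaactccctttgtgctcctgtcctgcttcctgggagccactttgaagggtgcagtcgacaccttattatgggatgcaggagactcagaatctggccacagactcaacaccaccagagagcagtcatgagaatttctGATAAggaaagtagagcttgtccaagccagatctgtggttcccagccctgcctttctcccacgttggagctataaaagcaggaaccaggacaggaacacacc
Cma1: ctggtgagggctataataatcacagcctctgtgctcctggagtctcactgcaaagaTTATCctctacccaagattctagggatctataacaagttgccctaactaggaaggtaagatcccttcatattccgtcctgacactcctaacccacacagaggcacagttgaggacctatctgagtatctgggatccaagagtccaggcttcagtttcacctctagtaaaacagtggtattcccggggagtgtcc
Cpa3: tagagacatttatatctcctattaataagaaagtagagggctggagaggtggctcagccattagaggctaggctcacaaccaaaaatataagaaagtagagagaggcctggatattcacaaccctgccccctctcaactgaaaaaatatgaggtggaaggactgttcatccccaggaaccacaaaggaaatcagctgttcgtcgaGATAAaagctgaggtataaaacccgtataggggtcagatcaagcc

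Each of these 3 windows held 1 such match. A window was at hand for 8 of the 10 genes, and 5 of the 8 held at least 1 match, against 22.6% of 32817 windows of the same length. The letters CANNTG, an E-box of the kind bound by MITF, were counted 0 times before Mcpt4, 1 time before Cma1 and 2 times before Cpa3, and 66.2% of all windows held at least 1. Sites of CpG, the dinucleotide that DNA methyltransferases methylate, numbered 2 before Mcpt4, 2 before Cma1, 3 before Cpa3 and 0 before Fcer1a, where the median over all windows was 6. The windows before Kit and Kitl held 17 and 23 CpG. The windows of the protease genes thus did not differ much in CpG number, whereas those of Kit and Kitl were rich in it. A match in letters is a description of the window, and no methylation or binding was measured here.

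Dnmt3a, the targeted gene, had a mean of 49.4 CPM over the WT and 33.3 CPM over the KO lesions, with no overlap. Such a separation, with WT above KO, was seen for 8.74% of the genes tested. The log2 fold change of Dnmt3a was -0.57 (edgeR's quasi-likelihood test, Benjamini-Hochberg adjusted p = 0.321), so the KO lesions kept much of the transcript. CPM are counts per 1000000 counts of the library, after scaling between libraries. The libraries held 45370342 to 57239184 counts, so that 1 count was worth 0.0175 to 0.0225 CPM. All 12 markers of endometrial epithelium and stroma looked at were among the genes tested, among them Ltf at 9882 to 33570 CPM and Esr1 at 93.2 to 445 CPM. The libraries were not alike within a group. WT replicate 2 had a summed level of 10030 CPM over 8 neutrophil markers, where the other 5 lesions had 43.3 to 498 CPM. WT replicates 1 and 3 had 25280 and 26980 CPM over 6 skeletal muscle genes, where the others had 3.26 to 14.0 CPM.

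The connective tissue chymase gene Mcpt4 was lower in every KO lesion, while the groups overlapped for the other mast cell protease genes. Of the 10 genes, 8 passed the filter on low counts, and Tpsab1 and Ms4a2 did not. In edgeR's quasi-likelihood test, 2 of the 8, Mcpt4 and Fcer1a, were lower in KO lesions. The threshold was that of the study, a log2 fold change below -1 and an unadjusted p under 0.05, which 5.85% of the 18177 genes tested reached in that direction and 8.96% in either direction. On the higher side 0 of the 8 passed, where 3.1% of all genes did. With Benjamini-Hochberg adjusted p-values, 0 of the 8 passed in edgeR's test, and 0.0055% of all genes did, and limma voom with sample quality weights (limma voom from here on) also gave 0. DESeq2's Wald test gave 1, Mcpt4, and called 6.14% of the 17917 genes it tested. Of the 8 genes, 4 had a negative and 4 a positive log2 fold change, with a median of -0.07.

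**Figure D1:**
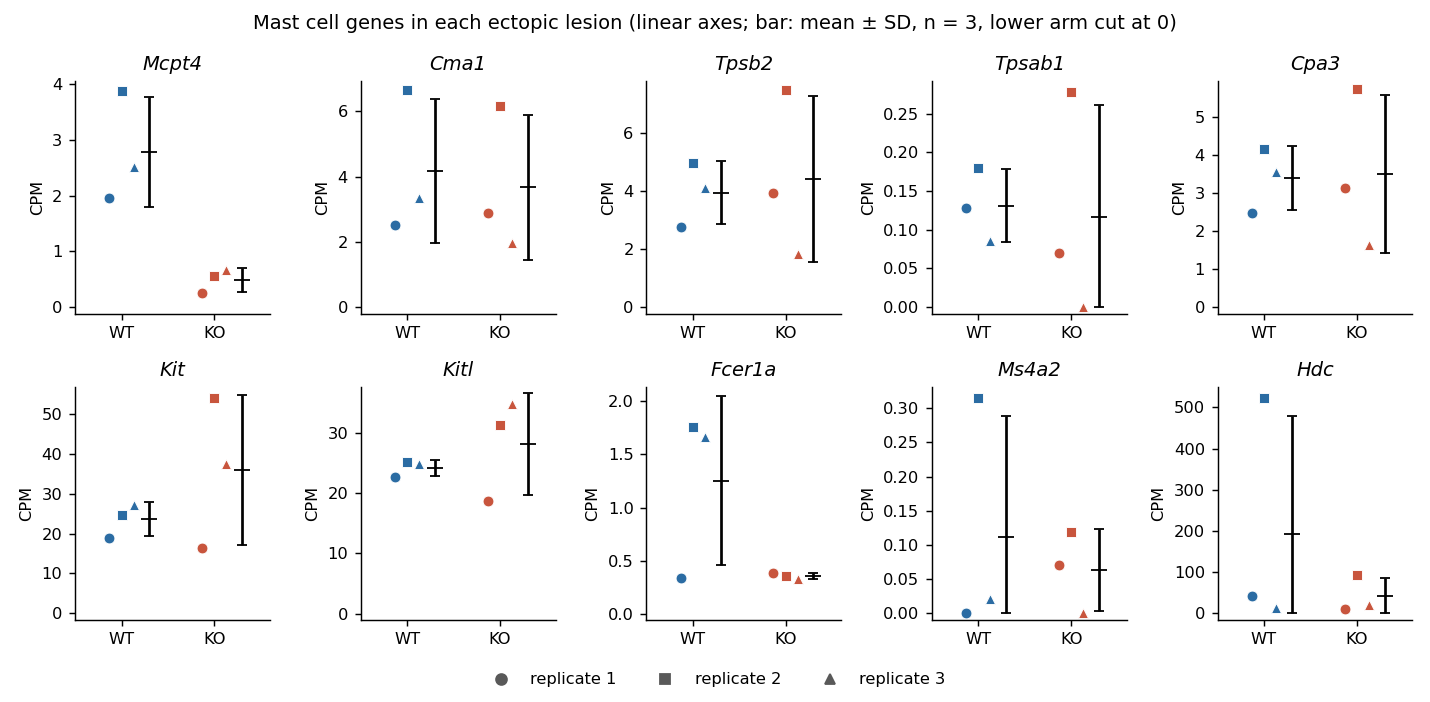
CPM of each of the 10 mast cell genes (vertical axes, linear, one scale per gene) in 3 WT and 3 Dnmt3a KO lesions (horizontal axis). Points are lesions, with circles, squares and triangles for replicates 1, 2 and 3, and bars give the mean ± SD (n = 3), ended at 0 where they would pass it. The KO lesions lie below the WT lesions for Mcpt4, at most 0.667 CPM against at least 1.96 CPM, and the groups overlap for the other 9 genes.

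Mcpt4 (ENSMUSG00000061068.8, chromosome 14, minus strand, 56059629 to 56062313 in GENCODE M21 on GRCm38) encodes mouse mast cell protease 4, the main chymase of connective tissue mast cells. Its level was 1.96, 3.87 and 2.52 CPM in WT replicates 1, 2 and 3, against 0.246, 0.556 and 0.667 CPM in the KO replicates of these numbers. These are 92, 172 and 118 counts in WT and 14, 28 and 32 counts in KO lesions, all above the limit of 3 counts that a count of 0 allows. The lowest WT lesion lay well above the highest KO lesion. Such a separation, with WT above KO, was seen for 8.74% of the genes tested. The mean was 2.79 ± 0.981 CPM (SD, n = 3) for WT, and for KO lesions it was 0.49 ± 0.218 CPM (SD, n = 3). This was a 5.68-fold lower level, or -2.51 on the log2 scale (standard error 0.496, 95% confidence interval -3.72 to -1.29). The quasi-likelihood test of edgeR gave an unadjusted p of 0.0023 and an adjusted p of 0.321. The exact two-sided permutation test gave p = 0.1, the smallest that 3 lesions against 3 allow.

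The difference in Mcpt4 did not rest on a single library. Its log2 fold change was -2.19 without WT replicate 2, the lesion with the high neutrophil markers, and when single lesions were left out it ranged from -2.79 to -2.18. With WT replicates 1 and 3 left out, the lesions with skeletal muscle transcripts, it was -2.99. This alternative was chosen after seeing the data. The lone WT lesion is assumed to vary like the KO lesions, so the spread among WT lesions does not enter it. Markers of the stroma and of smooth muscle were not level between the groups. Of 6 stroma markers 3 passed as higher in KO lesions, Esr1 (1.13 on the log2 scale), Hoxa11 (1.05) and Hand2 (1.02), each without overlap. Of the 6, 5 had a positive log2 fold change, and Pdgfra went the other way at -0.86, without passing. Pdgfra had 298, 408 and 321 CPM in the WT, against 142, 104 and 321 CPM in the KO lesions. The sum of the 6 was 665 to 781 CPM in WT and 749 to 876 CPM in KO lesions. Of 5 smooth muscle markers Cnn1 passed as higher (1.26), and Myh11 was higher in every KO lesion at 0.96, short of the fold limit. Of the 5, 4 had a positive log2 fold change, and Des went the other way at -2.16, without passing. Des had 2675, 106 and 1357 CPM in the WT, against 371, 195 and 362 CPM in the KO lesions. It was thus highest in the lesions with skeletal muscle transcripts, WT replicates 1 and 3. With Des included, the sum of the 5 was 991 to 4734 CPM in WT and 2012 to 3498 CPM in KO lesions. The part of stroma and smooth muscle in the level of Mcpt4 was not tested. The adjusted p-value of Mcpt4 was lowest with the Wald test of DESeq2 (0.000112) and highest when KO replicate 2 was left out (0.668).

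Cma1, on chromosome 14 from 55941451 to 55944675 in the same cluster of protease genes as Mcpt4, encodes the chymase-family protease mMCP-5. It had 2.52, 6.66 and 3.33 CPM in the WT, against 2.88, 6.16 and 1.96 CPM in the KO lesions. Replicate 2 was the highest in either group, and the groups overlapped over most of their range. For Cma1 the log2 fold change was -0.19 (standard error 0.564, 95% confidence interval -1.57 to 1.19, edgeR adjusted p = 0.887). Its sign turned to 0.33 without WT replicate 2, to 0.12 without KO replicate 3 and to 0.25 with limma voom, so that no direction can be given.

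Tpsb2, the tryptase mMCP-6 (chromosome 17, 25366305 to 25369098), had 2.78, 4.95 and 4.10 CPM in the WT, against 3.93, 7.49 and 1.83 CPM in the KO lesions. Its log2 fold change was 0.16 (standard error 0.538, 95% confidence interval -1.15 to 1.48, edgeR adjusted p = 0.897). KO lesions held both the highest and the lowest value.
Cpa3, mast cell carboxypeptidase A (chromosome 3, 20215620 to 20242181), had 2.48, 4.14 and 3.55 CPM in the WT, against 3.12, 5.72 and 1.63 CPM in the KO lesions. Its log2 fold change was 0.04 (standard error 0.496, 95% confidence interval -1.17 to 1.26, edgeR adjusted p = 0.972). As for Tpsb2, KO replicate 2 was the highest and KO replicate 3 the lowest of the 6 lesions. These intervals leave room for differences of over 2-fold in either direction.

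Tpsab1 encodes a further tryptase, mMCP-7, which C57BL/6 mice are known to lack through a splice-site change. Its counts were 6, 8 and 4 in WT and 4, 14 and 0 in KO lesions, so it did not pass the filter on low counts. A count of 0 in KO replicate 3 allows a level of up to 0.0625 CPM, and no fold is given. Per kilobase of exon, its mean level was 0.0627 CPM in WT lesions, where that of Tpsb2 was 2.47 CPM. No run of 50 bases in the transcripts of Tpsb2 or Tpsab1 occurred in the transcripts of another gene, whereas 5.48% of those of Mcpt4 also occurred in Cma2 or Mcpt9 and 5.38% of those of Cma1 in Gm48934. Of runs of 100 bases, 0.0991% were shared for Mcpt4 and 0% for Cma1.

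**Figure D2:**
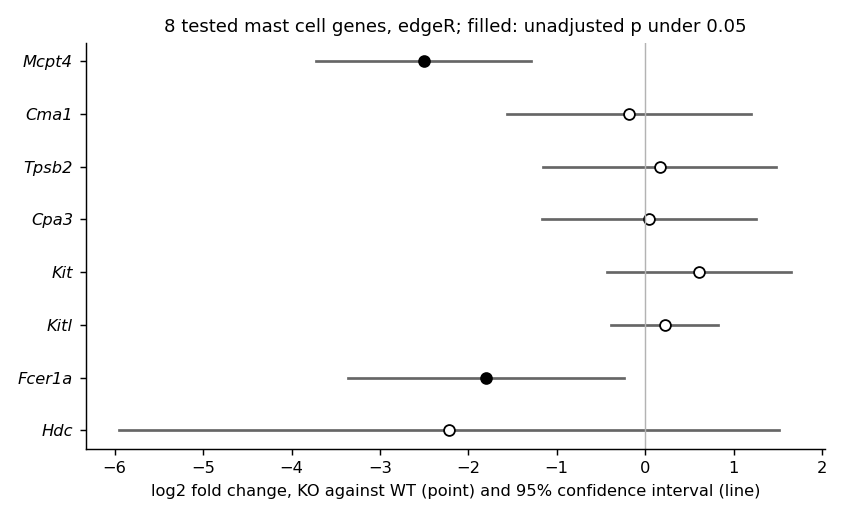
Log2 fold change of the 8 tested mast cell genes in KO against WT lesions (horizontal axis), as points (filled where the unadjusted p was under 0.05) with 95% confidence intervals from edgeR as lines. The intervals of Mcpt4 (-3.72 to -1.29) and Fcer1a (-3.36 to -0.24) lie below 0, and those of the other 6 genes include 0.

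The summed level of the 5 protease genes did not separate the groups. It was 9.86, 19.8 and 13.6 CPM in the WT, against 10.2, 20.2 and 6.09 CPM in the KO lesions, with means of 14.4 ± 5.03 CPM and 12.2 ± 7.25 CPM (SD, n = 3 each). The difference of -2.24 CPM was smaller than either SD, and its sign turned without WT replicate 2 (0.455 CPM) or KO replicate 3 (0.798 CPM). No test was made of this sum, since its genes were chosen as a list.

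The makeup of the sum differed more than its size. Mcpt4 held 19.9%, 19.6% and 18.6% of the summed protease CPM in WT replicates 1, 2 and 3, and 2.40%, 2.75% and 10.96% in KO replicates 1, 2 and 3. The WT lesions were close to each other although their sums differed, and every KO lesion lay below them. Cpa3 held 20.9% to 26.1% in WT and 26.7% to 30.5% in KO lesions, and Cma1 24.5% to 33.6% and 28.1% to 32.2%. The ratio of Mcpt4 to Cpa3 was 0.793, 0.935 and 0.711 in WT and 0.0787, 0.0972 and 0.41 in KO lesions. By contrast, the ratio of Tpsb2 to Cpa3 was 1.12, 1.20 and 1.16 in WT and 1.26, 1.31 and 1.13 in KO lesions. Tpsb2 and Cpa3 thus kept nearly the same proportion in all 6 lesions, while Mcpt4 did not keep its proportion to either. These ratios were chosen after the values were seen and carry no test.

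**Figure D3:**
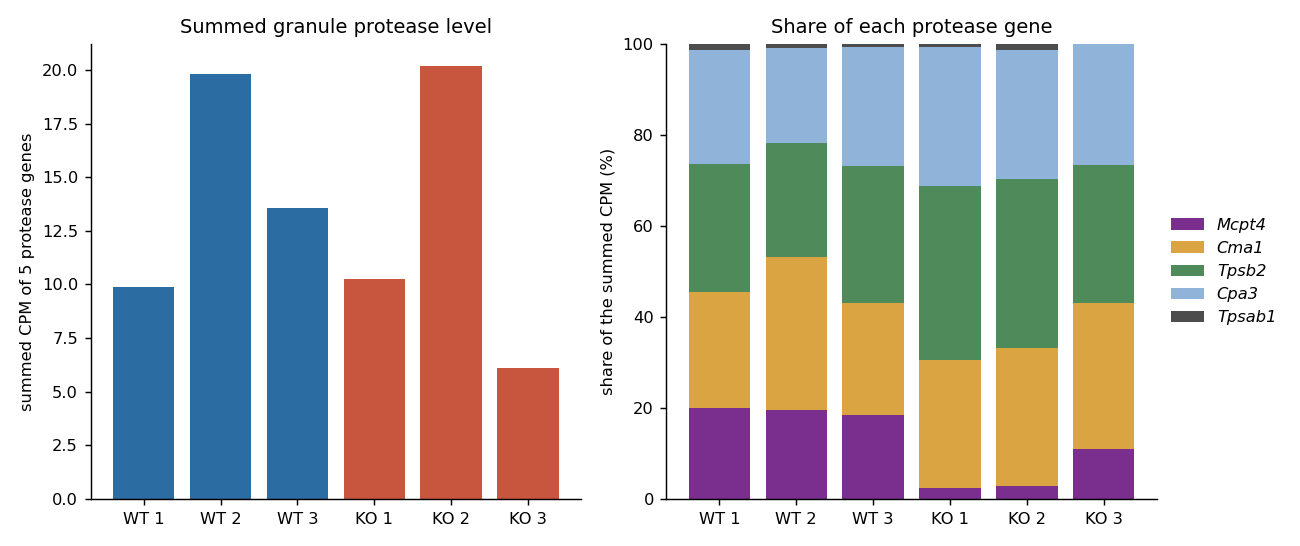
Left, summed CPM of the 5 granule protease genes in each lesion (vertical axis, bars from 0). Right, the share of each gene in that sum in percent. The sums of the groups overlap, from 9.86 to 19.8 CPM in WT and from 6.09 to 20.2 CPM in KO lesions, whereas the share of Mcpt4 is 18.6% to 19.9% in WT and 2.40% to 10.96% in KO lesions.

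Across the 6 lesions, log2 CPM of Tpsb2 and Cpa3 had a Pearson correlation of 0.997, and Cma1 had 0.896 with Tpsb2 and 0.908 with Cpa3. Mcpt4 had 0.302, 0.029 and 0.108 with Cma1, Tpsb2 and Cpa3. These are descriptions over 6 libraries that also share scaling and differ in cell makeup, so no p-value is given. Among 15039 other genes with a mean of at least 1 CPM, 8 had a correlation over 0.95 with the mean profile of Mcpt4, Cma1, Tpsb2 and Cpa3. The closest were Nostrin (0.99), Gm11605 (0.987), Zfp658 (0.961), Gm49760 (0.96) and Slc35f1 (0.96), and Steap1 and Pum2 were also among them. No gene of the lists of mast cell genes used here was among the 8.

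Kit and Kitl, the receptor and the ligand that mast cells depend on, did not separate the groups. Kit (chromosome 5, 75574916 to 75656722) encodes a receptor tyrosine kinase that is also made by interstitial cells of Cajal, melanocytes and some epithelial cells. It had 19.0, 24.5 and 27.2 CPM in the WT, against 16.5, 54.0 and 37.5 CPM in the KO lesions. KO replicates 2 and 3 lay above all WT lesions and KO replicate 1 below them. The log2 fold change was 0.61 (standard error 0.427, 95% confidence interval -0.44 to 1.65, edgeR adjusted p = 0.499). Leaving out KO replicate 2 gave 0.20, and leaving out KO replicate 1 gave 0.96 (unadjusted p = 0.0118, adjusted p = 0.633, edgeR).
Kit did not follow the protease genes. Its ratio to Cpa3 was 7.66, 5.92 and 7.68 in WT and 5.28, 9.43 and 23.0 in KO lesions, and its correlation with Cpa3 over the 6 lesions was 0.276. Of 4 genes of interstitial cells of Cajal, 0 passed the threshold, and their sum was 146 to 278 CPM in WT and 98.0 to 202 CPM in KO lesions. The chloride channel gene Ano1 of that list had 26.6, 42.0 and 36.9 CPM in the WT, against 16.5, 80.1 and 28.0 CPM in the KO lesions. KO replicate 2 was thus the highest for Ano1 as for Kit. In the same list Thbs4 was lowest in KO replicate 2, at 51.5 CPM against 73.3 to 233 CPM in the other lesions. Etv1 had 12.2 CPM there, below all WT lesions (12.3 to 17.2 CPM). Gpr20 had 0.397 CPM there, within the WT range of 0.128 to 0.769 CPM. Of 5 melanocyte genes, Tyrp1 had 0 counts in all 6 lesions, Dct at most 16 and Mlana at most 12, while Pmel had 51 to 224 counts. Sox10, also made by Schwann cells, passed as lower in KO lesions, with 0.641 to 1.26 CPM across WT and 0.119 to 0.458 CPM across KO lesions (log2 fold change -1.80, edgeR unadjusted p = 0.0253). The sum of the 5 was 2.54 to 2.80 CPM in WT and 1.81 to 4.35 CPM in KO lesions. The part of these cells in the level of Kit was not tested.

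Kitl (chromosome 10, 100015630 to 100100416) encodes stem cell factor, made by stromal, endothelial and epithelial cells. Its level was 22.7, 25.2 and 24.8 CPM in the WT, against 18.7, 31.3 and 34.8 CPM in the KO lesions. The WT lesions were close to each other, and the KO lesions lay on both sides of them. On the log2 scale Kitl differed by 0.22 (standard error 0.247, 95% confidence interval -0.38 to 0.83, edgeR adjusted p = 0.67). This was the narrowest interval of the 8 genes. Kit and Kitl had a correlation of 0.894 over the 6 lesions. The genes most like Kitl among the 15039 were Dcp1a (0.984), Pcdhgb6 (0.979) and Srpk2 (0.972), followed by Arhgap18, Adh5, Fggy, Tmem98 and Tbc1d5.

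Fcer1a and Ms4a2 encode the IgE-binding alpha chain and the signal-amplifying beta chain of the high-affinity IgE receptor. Fcer1a (chromosome 1, 173221284 to 173227214) had 0.342, 1.76 and 1.67 CPM in the WT, against 0.386, 0.358 and 0.333 CPM in the KO lesions. These are 16, 78 and 78 counts in WT and 22, 18 and 16 in KO lesions. WT replicates 2 and 3 lay above all KO lesions, and WT replicate 1 lay within the KO range. The log2 fold change was -1.80 (standard error 0.639), and edgeR gave an unadjusted p of 0.0305 and an adjusted p of 0.328. The unadjusted p-value was over 0.05 without WT replicate 2 (0.0881), without WT replicate 3 (0.087), without KO replicate 1 (0.0764), 2 (0.0785) or 3 (0.0847), and was 0.00121 without WT replicate 1. The unadjusted p-value of Fcer1a was also over 0.05 with limma voom (0.167).
Ms4a2 had 0, 14 and 1 counts in WT and 4, 6 and 0 counts in KO lesions, and did not pass the filter. A count of 0 allows up to 0.0641 CPM in WT replicate 1 and 0.0625 CPM in KO replicate 3. At this depth no difference in Ms4a2 was detectable. The pattern of Fcer1a was not that of Cpa3, with a correlation of 0.356 over the 6 lesions, and was nearer to that of Mcpt4 (0.748).

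Downstream of the receptor, 14 genes of its signalling chain were tested, with a median log2 fold change of -1.01, against a median of 0.01 over all genes tested. As higher 0 of the 14 passed, where 3.1% of all genes tested did, and as lower 2, where 5.85% did. These 2 were Lat, an adaptor of mast and T cells, and Grap2, an adaptor of the same complex. Lat had 2.90, 6.64 and 2.35 CPM in the WT, against 1.579, 0.596 and 1.5 CPM in the KO lesions, with no overlap and a log2 fold change of -1.69 (edgeR adjusted p = 0.328, standard error 0.573). Grap2 had 4.25, 10.4 and 4.74 CPM in the WT, against 2.00, 1.03 and 3.88 CPM in the KO lesions. Vav1, an exchange factor, did not pass, with 32.4, 122.5 and 28.0 CPM in the WT, against 20.0, 13.0 and 29.2 CPM in the KO lesions. WT replicate 2 was the highest lesion for all 3. When WT replicate 2 was left out, 0 of the 14 genes passed in edgeR's test and the median moved to -0.17, with Lat at -1.10 (unadjusted p = 0.0776) and Grap2 at -0.96 (unadjusted p = 0.154). The number that passed as lower was also 0 with KO replicate 2 left out, where 658 of 18925 genes tested passed as lower. It was 6 without WT replicate 1, where 1130 of 18873 did, and 4 without WT replicate 3, where 1178 of 18875 did. The genes of this chain are used by many leukocytes. The summed level of 6 macrophage markers was likewise highest in WT replicate 2, at 1827 CPM against 386 to 943 CPM in the other 5 lesions. The part of other leukocytes in these values was not tested.

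Hdc (chromosome 2, 126593667 to 126619299) encodes histidine decarboxylase, the enzyme that makes histamine, in mast cells and also in basophils, neutrophils and immature myeloid cells. Its level was 41.3, 523 and 11.8 CPM in the WT, against 10.2, 93.5 and 20.4 CPM in the KO lesions. WT replicate 2 stood far above all others, KO replicate 2 came next, and the remaining 4 lesions of both groups overlapped. For Hdc the log2 fold change was -2.21 (standard error 1.53, 95% confidence interval -5.95 to 1.52, edgeR adjusted p = 0.493). Without WT replicate 2 it turned to 0.64, and with limma voom it was 0.003.

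The sum of the neutrophil markers moved with Hdc in WT replicate 2 and not in KO replicate 2. The summed level of the 8 markers was 498, 10030 and 229 CPM in the WT, against 92.6, 43.3 and 221 CPM in the KO lesions. WT replicate 2 was thus the highest lesion in this sum and KO replicate 2 the lowest. Most of the sum in WT replicate 2 came from S100a9 (5263 CPM) and S100a8 (3406 CPM). S100a8, S100a9, Csf3r, Cxcr2 and Mmp9 were each lowest in KO replicate 2. Mmp8 (6.97 CPM), Retnlg (19.4 CPM) and Ly6g (1.19 CPM) were not, and lay there within the range of the other lesions. None of the 8 markers was at 0 counts in a lesion, and S100a9, a calcium-binding protein abundant in neutrophils, ranged from 2.38 CPM in KO replicate 2 to 5263 CPM in WT replicate 2. The sum of Cma1, Tpsb2 and Cpa3 was 7.77, 15.8 and 10.98 CPM in the WT, against 9.93, 19.4 and 5.42 CPM in the KO lesions, so that both lesions with high Hdc were also the highest in it. Hdc over Cpa3 was 126 in WT replicate 2, 16.3 in KO replicate 2 and 3.28 to 16.7 in the other 4 lesions. Of 5 basophil genes 0 passed, and their sum was 40.3 to 65.2 CPM in WT and 48.2 to 89.4 CPM in KO lesions, most of it from Cd200r3 (25.9 to 81.0 CPM) and Il3ra (4.39 to 16.8 CPM). The basophil protease genes Mcpt8 and Prss34 had at most 4 and 20 counts in a lesion. The part of neutrophils and of basophils in the level of Hdc was not tested. The 3 genes most like Hdc among the 15039 were Tmem219 (0.993), Kmt2c (0.991) and Napsa (0.985), followed by Igkv12-89, Tent4b, Zmym5, 1600020E01Rik and Ighv1-55.

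**Figure D4:**
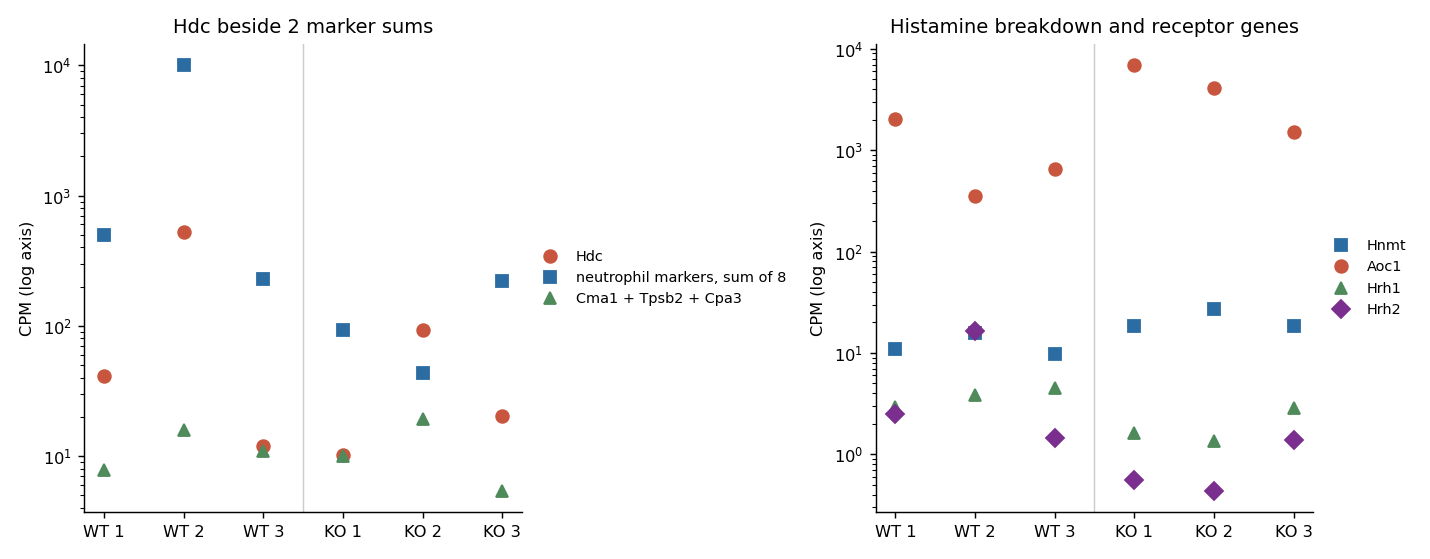
CPM on log axes in each of the 3 WT and 3 KO lesions. Left, Hdc with the sum of 8 neutrophil markers and the sum of Cma1, Tpsb2 and Cpa3, where WT replicate 2 is high in all 3 and KO replicate 2 has 93.5 CPM of Hdc with 43.3 CPM of neutrophil markers. Right, the histamine-degrading enzymes Hnmt and Aoc1 and the receptors Hrh1 and Hrh2, where Hnmt is at least 18.3 CPM in KO and at most 15.7 CPM in WT lesions.

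Genes that act on histamine after its release were also read. Of 7 such genes 5 were tested, 1 passed as lower and 1 as higher, and the unadjusted p was under 0.05 for 4, as for 14.7% of all genes tested. Hnmt, which inactivates histamine by methylation inside cells, had 10.9, 15.7 and 9.68 CPM in the WT, against 18.5, 27.2 and 18.3 CPM in the KO lesions. All KO lesions lay above all WT lesions, as for 10.7% of the genes tested, and the log2 fold change of 0.82 (edgeR adjusted p = 0.328, standard error 0.264) was under the fold limit. The receptor gene Hrh2 had 2.48, 16.5 and 1.45 CPM in the WT, against 0.561, 0.437 and 1.38 CPM in the KO lesions, and passed as lower with a log2 fold change of -3.11 (edgeR adjusted p = 0.328, standard error 1.08). The log2 fold change of Hrh2 was -1.31 without WT replicate 2 (unadjusted p = 0.0838, edgeR), and leaving out KO replicate 1 or 2 gave an unadjusted p of 0.09 or 0.0841. Hrh1, the receptor behind histamine's effects on vessels and smooth muscle, had 2.90, 3.85 and 4.46 CPM in the WT, against 1.61, 1.35 and 2.83 CPM in the KO lesions, with no overlap and a log2 fold change of -0.95, short of the limit. Aoc1, the extracellular diamine oxidase, was the gene that passed as higher and is named after its values were seen. It had 2047, 355 and 647 CPM in the WT, against 6888, 4131 and 1528 CPM in the KO lesions, and the log2 fold change was 2.04 (edgeR unadjusted p = 0.0499, adjusted p = 0.34, standard error 0.834). WT replicate 1 lay above KO replicate 3, so the groups overlapped, and the unadjusted p of Aoc1 was over 0.05 without WT replicate 2 (0.099), WT replicate 3 (0.138), KO replicate 1 (0.156) or KO replicate 2 (0.0914). The 6 epithelial markers had a sum of 10920 to 20330 CPM in WT and 16840 to 35820 CPM in KO lesions. Most of it came from 1 gene, Ltf (9882 to 33570 CPM). All 6 had a positive log2 fold change, with a median of 0.60, and 0 passed in either direction. The part of the epithelium in the level of Aoc1 was not tested.

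Among the factors that feed or activate mast cells and receptors for such factors, 7 of 11 genes were tested. All 7 had a negative log2 fold change, with a median of -1.13, or -0.34 without WT replicate 2. None passed as higher, and 1 passed as lower, where 5.85% of all genes tested did. This was Il33, an alarmin that acts on mast cells through the receptor of Il1rl1, at 14.7, 96.2 and 33.7 CPM in the WT, against 10.5, 12.3 and 13.0 CPM in the KO lesions (log2 fold change -2.01, edgeR adjusted p = 0.328, standard error 0.667). WT replicate 1 was just above the KO lesions and WT replicate 2 far above them. The log2 fold change of Il33 was -1.02 without WT replicate 2 (unadjusted p = 0.0383, edgeR), and its unadjusted p was 0.0757, 0.0629 and 0.0615 without KO replicates 1, 2 and 3. Il3 and Il9, growth factors of mast cells in culture, had 0 counts in all 6 lesions. Tslp, an epithelial cytokine, had 1.20, 3.11 and 2.22 CPM in the WT, against 0.614, 0.795 and 1.56 CPM in the KO lesions, and its groups overlapped. Csf2rb, the shared receptor chain for interleukin 3, had 50.6, 343 and 40.6 CPM in the WT, against 26.4, 27.3 and 56.0 CPM in the KO lesions.

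Of 18 other mast cell genes, 12 were tested, 0 passed the threshold in edgeR's test, 0 reached an unadjusted p under 0.05, and the median log2 fold change was -0.13. The mucosal protease gene Mcpt1 and Mcpt9, known from mast cells of the uterus, had 0 counts in all 6 lesions, and the mucosal Mcpt2 had at most 10. With single lesions left out, at most 1 passed as lower and at most 2 as higher. Fcer1g, the gamma chain of the IgE receptor and of other Fc receptors, had 76.5, 312 and 72.8 CPM in the WT, against 52.5, 35.1 and 82.4 CPM in the KO lesions. Slc6a4, the serotonin transporter gene, had 2.69, 1.62 and 2.09 CPM in the WT, against 3.97, 15.9 and 1.46 CPM in the KO lesions. Cyp11a1, a steroid-synthesis enzyme also found in mast cells, had 0.0854 to 0.36 CPM in the WT, against 0.281, 5.98 and 0.167 CPM in the KO lesions. For Slc6a4 and Cyp11a1 a single lesion, KO replicate 2, was far above the other 5.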

How the data were processed

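Total RNA of 6 ectopic lesions was made into stranded mRNA libraries. The deposited values are raw counts of reads per gene for 56884 genes. The authors trimmed reads, mapped them to GRCm38 per the methods (the labels list GRCm39) and counted them, with Trimmomatic, featureCounts and DESeq2 named in the submitters' processing notes. The aligner, the annotation release and the strand setting are not given in the sources used here. The 6 single-library files hold the same counts as the series table. Of the counts from 1 to 50, 88.1% to 89.6% were even, and whether both mates of a pair were counted is not given in the sources used here.

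Symbols were found for 51948 identifiers and positions taken from GENCODE M21 on GRCm38. Identifiers without a symbol held 3.04% to 3.56% of the counts. In edgeR 4.0.16 (R 4.3.3), filterByExpr kept 18177 genes, libraries were scaled by TMM (factors 0.962 to 1.05), and a quasi-likelihood model with genotype as its only term was fitted, with Benjamini-Hochberg adjustment over all genes. Standard errors are the size of the log2 fold change over the square root of F. Correlations used log2 CPM with a prior count of 2. The limit for a count of 0 was 3 counts and covers counting error only. It takes each count as independent, so it is too low if both mates of a pair were counted. Named genes are the 10 members, up to 3 genes per list with at least 1 CPM and the smallest p-value, Dnmt3a, defining markers of cell types set beside the members, and the 8 genes most like a profile, of which 1 is not reported here. Aoc1, Mcpt1, Mcpt2, Mcpt9, Il3 and Il9 fall outside this rule and were named after their values were seen. The members and lists were chosen with earlier results of these data known. Alternatives were DESeq2 1.42.0, limma 3.58.1 voom with sample quality weights, other scalings and filters, a replicate block and each lesion left out. Of these 15 alternatives, counts halved and WT replicate 2 as the only WT lesion were chosen after seeing the data. The fit was checked on simulated counts. Within groups, every pair of libraries differed far beyond sampling noise. Per the methods, the 3 lesions of a group came from 3 donors.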

Additional observations from a re-analysis of the deposited data

How the results depend on the processing

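Mcpt4 stayed lower in all 15 alternatives, with a log2 fold change from -2.99 to -2.18 and an unadjusted p-value under 0.05 in each. Its adjusted p-value was under 0.05 in 1 of them, DESeq2's Wald test (0.000112), and 0.065 with limma voom. Fcer1a stayed lower in the 14 alternatives that tested it. The number of mast cell genes lower at the unadjusted threshold fell from 2 to 1 with limma voom, with the replicate block and with counts halved (the last chosen after seeing the data, where Fcer1a did not pass the filter), and ran from 1 to 2 with each lesion left out in turn. It was 3 with WT replicate 2 as the only WT lesion, where Hdc also passed (-3.68, unadjusted p = 0.0435, edgeR). Without WT replicate 1 it was 2, and without each of the other lesions 1. The number lower after adjustment was 1 with DESeq2's Wald test in place of 0. The number higher was 0 in every alternative at both thresholds. Deviations of same-numbered lesions from their group means had correlations of 0.032, -0.152 and -0.201 for numbers 1, 2 and 3. Pairs of unlike number had -0.15 to 0.228. With so few lesions these values cannot show whether lesions of the same number were handled together. With the replicate block Fcer1a had an unadjusted p of 0.0972 and Mcpt4 an adjusted p of 0.63.

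The sign of some small differences turned. With the replicate block the log2 fold change of Tpsb2 was -0.003 and that of Cpa3 -0.094. With limma voom Cma1 had 0.249 and Hdc 0.003. With WT replicate 2 as the only WT lesion, chosen after seeing the data, Tpsb2 had -0.191 and Cpa3 -0.273. With each lesion left out in turn the log2 fold changes ran from -0.782 to 0.325 for Cma1, -0.447 to 0.535 for Tpsb2, -0.508 to 0.385 for Cpa3 and -3.646 to 0.641 for Hdc. Kit and Kitl kept a positive sign in all 15. The cause of these turns was not tested. The difference of the summed protease level ran from -6.191 to 0.798 CPM with each lesion left out and was -2.428 CPM with DESeq2's size factors and -1.303 CPM with upper quartile scaling. The median over all genes tested was 0.01 with TMM and 0.11 under upper quartile scaling. Over all genes, DESeq2's Wald test gave 709 lower and 391 higher genes after adjustment, where edgeR's test gave 1 and 0, or 396 and 2 without WT replicate 2, and limma voom 12 and 0.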
